A study of Homo sapiens with 9 samples.

Results

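The G protein beta and gamma subunit genes GNB1, GNB2, GNB4, GNG2, GNG3, GNG4, GNG5, GNG7, GNG11 and GNG12 were picked out by their symbols, and all 10 were found among the 31080 reference genes with an FPKM value. The choice of these genes was made with earlier results of these data known. FPKM is the number of fragments scaled by transcript length and by library depth, so that levels of different genes can be compared. The values came from A549, an established human lung cancer cell line, in which Cyclin K was depleted with RNA interference. The cells received scrambled siRNA or 1 of the siRNAs against CCNK, named siCyclin K#1 and siCyclin K#2, each at 50 nM and for 48 h with Lipofectamine RNAiMAX, and total RNA of 3 libraries was sequenced for each, 9 in all. Cyclin K, encoded by CCNK, is the partner of the kinases CDK12 and CDK13, which phosphorylate RNA polymerase II. No genotype or drug besides the siRNAs was named for any group, and all libraries came from the same cell line. The methods speak of independent experiments in general but do not say whether the 3 libraries of a group were separate transfections, so p-values measure only the spread between these libraries.

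Heterotrimeric G proteins carry signals from receptors of the seven-transmembrane class into the cell. The alpha subunit binds guanine nucleotides, while a beta and a gamma subunit form a tight dimer that is anchored to the membrane by a lipid on the gamma subunit. When the receptor is activated, the alpha subunit and the beta-gamma dimer separate, and each acts on its own effectors, among them adenylyl cyclases, phospholipases C beta, phosphoinositide 3-kinases and ion channels.

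The genes lie on 6 chromosomes of GRCh38, and GNB1, GNG4, GNG5 and GNG12 are on chromosome 1. GNB4 (ENSG00000114450) extends from 179396089 to 179451590 on the minus strand of chromosome 3, GNG3 (ENSG00000162188) from 62707658 to 62709201 on the plus strand of chromosome 11, and GNG7 (ENSG00000176533) from 2511219 to 2702709 on the minus strand of chromosome 19. GNG11 (ENSG00000127920) extends from 93921699 to 93928610 on the plus strand of chromosome 7, and GNG12 (ENSG00000172380) from 67701466 to 67833467 on the minus strand of chromosome 1. Because GNB4 was low with only 1 of the siRNAs, as described later, the 3′ UTRs of the 10 genes were searched for 7-base matches to bases 2 to 8 of each siRNA guide strand, the seed that pairs first with a target. The guide was taken as the exact complement of the listed target, and the longest 3′ UTR of each gene in GENCODE 29 was read on its sense strand. The match to the siCyclin K#1 seed is GTGATAA, and the match to the siCyclin K#2 seed is TACAGGT. One place in the 10 genes held the former and none held the latter. It lies in the longest annotated 3′ UTR of GNB4, at base 4579 of 5127, and is shown with 11 bases on either side and the match in capitals (chr3:179396620-179396648, minus strand, GENCODE 29).
GNB4: aaaatacagttGTGATAAagcagcattac
Such matches were common. Of 11462 tested genes with a 3′ UTR, 1204 (10.5%) held the siCyclin K#1 match and 1508 (13.2%) held the siCyclin K#2 match, and the median 3′ UTR had 1331 bases. A match is a string of letters and not a measured site, and its part in the level of GNB4 was not tested.

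The FPKM steps gave 31333835 to 33768067 reads per library. CCNK fell from 7.02 ± 0.107 (SD, n = 3) to 0.809 ± 0.0857 under siCyclin K#1 and 0.844 ± 0.0661 under siCyclin K#2, a log2 fold change of -2.97 and -2.92 (adjusted p = 7.9e-08 and 2.3e-07, limma with Benjamini-Hochberg adjustment). All 5 markers of A549 cells were above 1 FPKM on average, and the endothelial markers PECAM1, CDH5 and VWF and the leukocyte marker PTPRC were below 0.1 in every library, although the leukocyte list summed to 0.573 to 1.02 FPKM. The epithelial list summed to 132 to 152 FPKM in scrambled libraries, 159.7 to 187 under siCyclin K#1 and 186 to 193 under siCyclin K#2. The alveolar type II list, with SFTPA2 and SFTPB below 0.1 throughout, summed to 5.89 to 6.77, 10.8 to 11.4 and 8.94 to 10.9. Of 5 fibroblast markers, only 1 averaged at least 1 FPKM, and COL3A1 and DCN were below 0.1 throughout. The summed level of the list was 2.29 to 2.72 FPKM in scrambled libraries, 15.5 to 17.4 under siCyclin K#1 and 3.55 to 3.74 under siCyclin K#2. The list was therefore highest under siCyclin K#1, the siRNA under which GNB4 was low and GNG12 was high, and its part in those results was not tested. In a bulk sample fewer cells of a kind and less RNA per cell cannot be told apart. Differences were tested on log2(FPKM + 0.1) over 21048 genes, and this scale understates changes of genes near 0.1 FPKM. The median of all genes was 0.10 higher under siCyclin K#1 than in scrambled cells on this scale, and 0.00 after median-ratio rescaling. Both siRNAs were compared with the same 3 scrambled libraries. A gene was said to rise or fall when its adjusted p was under 0.05.

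Cyclin K depletion was followed by uneven changes in the family. With siCyclin K#1, GNG7, GNG11 and GNG12 rose and GNB4 and GNG3 fell, while under siCyclin K#2, GNG7, GNG11 and GNB1 rose and GNG3 fell. Thus 3 of 10 genes were higher and 2 were lower under siCyclin K#1, against 26.8% and 18.1% of all tested genes, and 3 were higher and 1 was lower under siCyclin K#2, against 19.8% and 15.2%. These counts are near the shares of all genes, so they are not a result about the family as a group, and the results concern single subunits. At the study's rule of a fold change over 3 with an unadjusted p under 0.01, GNB4 and GNG7 passed under siCyclin K#1 and GNG7 alone passed under siCyclin K#2, where 4.67% and 1.94% of tested genes passed.

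**Figure D1:**
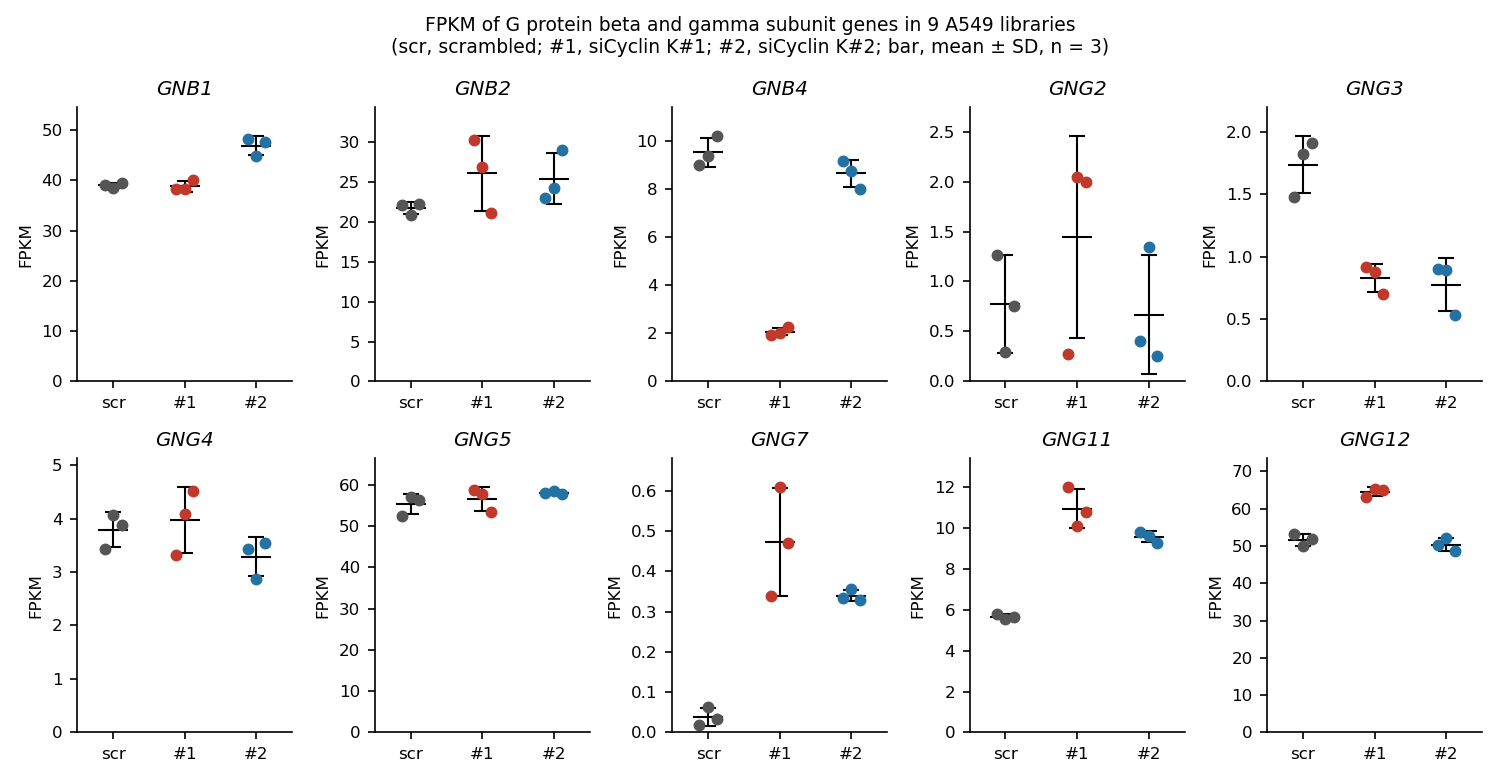
FPKM of the 10 beta and gamma subunit genes (vertical axes, each from 0) in the 3 libraries of each group, with points for libraries and bars for the mean ± SD. GNB4 was between 1.95 and 2.26 under siCyclin K#1 and between 8.03 and 10.2 elsewhere, GNG3 was highest and GNG7 and GNG11 were lowest in the scrambled libraries, and GNG2 varied from 0.251 to 2.05 with no separation of the groups.

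Among the beta subunits, which form the propeller-shaped part of the dimer, GNB1 was the most abundant. Its FPKM was 39.1, 38.5 and 39.5 in the scrambled libraries, 38.2, 38.2 and 40.1 under siCyclin K#1, and 48.3, 44.8 and 47.6 under siCyclin K#2. The siCyclin K#2 libraries were all above the other 6, and the scrambled and siCyclin K#1 libraries overlapped. GNB1 rose under siCyclin K#2 by a log2 fold change of 0.26 ± 0.04 (SE, adjusted p = 0.00062, limma). With siCyclin K#1 the difference was -0.01, with a 95% confidence interval from -0.09 to 0.08 (adjusted p = 0.9, limma).

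GNB2, the next most abundant beta subunit, was 22.1, 20.9 and 22.3 FPKM in scrambled cells. It was 30.3, 26.9 and 21.1 under siCyclin K#1 and 23.0, 24.3 and 29.1 under siCyclin K#2. The depleted libraries spread widely, and those of siCyclin K#1 reached down into the scrambled range. The log2 fold changes of 0.24 (95% confidence interval -0.05 to 0.54) and 0.22 (-0.08 to 0.52) did not pass the test (adjusted p = 0.17 and 0.24, limma). Without siCyclin K#1 replicate 3, the first became 0.39 and passed (adjusted p = 0.017, limma).

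GNB4, a close relative of GNB1 and GNB2, gave the widest gap between the siRNAs. It was 9.02, 9.38 and 10.2 FPKM in the scrambled libraries and 9.17, 8.77 and 8.03 under siCyclin K#2, but 1.95, 2.02 and 2.26 under siCyclin K#1. The siCyclin K#1 libraries were far below all the others, whereas the scrambled and siCyclin K#2 libraries overlapped. The mean was 4.59-fold higher in scrambled than in siCyclin K#1 cells, a log2 fold change of -2.14 ± 0.08 (SE, 95% confidence interval -2.32 to -1.97, adjusted p = 1.4e-07, limma). With siCyclin K#2 it was -0.14 (-0.32 to 0.04, adjusted p = 0.22, limma). The siCyclin K#1 value rests on about 445 to 524 reads per library and the scrambled value on about 2102 to 2328, estimated from the exon length. An antisense gene, AC007620.2, shares 1941 of the 7035 exon bases of GNB4 (27.6%), and strand was not stated for these libraries. AC007620.2 was listed at 0 in the scrambled and siCyclin K#1 libraries and at 0.0310 to 0.0808 FPKM under siCyclin K#2. If strand was not kept, reads of these genes cannot be told apart there, and the part of AC007620.2 was not tested.

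Of the gamma subunits with an FPKM value, which carry the lipid anchor, GNG5 and GNG12 were by far the most abundant. GNG12 was 53.1, 49.9 and 52.0 FPKM in scrambled cells, 63.1, 65.3 and 65.1 under siCyclin K#1 and 50.4, 52.1 and 48.7 under siCyclin K#2. All siCyclin K#1 libraries were above the other 6. GNG12 rose under siCyclin K#1 by 0.32 ± 0.04 on the log2 scale (SE, adjusted p = 0.00012, limma), by 0.20 after median-ratio rescaling and by 0.43 after quantile normalization, and under siCyclin K#2 the difference was -0.04 (95% confidence interval -0.12 to 0.05, adjusted p = 0.5, limma). The low antisense gene GNG12-AS1 rose with both siRNAs, from 0.165 to 0.199 FPKM in scrambled libraries to 0.320 to 0.403 under siCyclin K#1 and 0.281 to 0.349 under siCyclin K#2 (adjusted p = 0.013 and 0.043, limma). GNG12 therefore differed between the siRNAs while its antisense gene was high with each.

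GNG5 was steady, at 52.6, 57.0 and 56.4 FPKM in scrambled cells, 58.7, 57.7 and 53.4 under siCyclin K#1 and 58.1, 58.5 and 57.8 under siCyclin K#2. Its log2 differences were 0.03 and 0.07 with 95% confidence intervals from -0.07 to 0.13 and from -0.03 to 0.17 (adjusted p = 0.61 and 0.27, limma). Of the 1112 exon bases of GNG5, 344 (30.9%) overlap AL359762.3 on the same strand and 119 (10.7%) overlap SPATA1 on the opposite strand. Strand cannot tell reads of AL359762.3 and GNG5 apart there, and the part of these genes was not tested. The order of the top pair changed between groups: GNG12 was above GNG5 in all 3 siCyclin K#1 libraries and below it in all 3 siCyclin K#2 libraries, and in the scrambled group their ranges overlapped.

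GNG11, a gamma subunit of the farnesylated kind, rose with both siRNAs. Its FPKM was 5.81, 5.56 and 5.65 in scrambled libraries, 12, 10.1 and 10.8 under siCyclin K#1, and 9.84, 9.61 and 9.30 under siCyclin K#2. Every depleted library was above every scrambled library. The log2 fold changes were 0.94 ± 0.06 and 0.75 ± 0.06 (SE, adjusted p = 4.4e-06 and 3e-05, limma), or 1.93-fold and 1.69-fold in mean FPKM.

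GNG7 rose as well, from a level close to the limit of detection. It was 0.0195, 0.0620 and 0.0338 FPKM in the scrambled libraries, 0.339, 0.609 and 0.472 under siCyclin K#1, and 0.334, 0.356 and 0.330 under siCyclin K#2. These values stand for 3, 9 and 5 reads in scrambled libraries, 50, 87 and 71 under siCyclin K#1 and 49, 54 and 48 under siCyclin K#2. No depleted library came near the scrambled ones. The log2 fold changes were 2.03 ± 0.23 and 1.68 ± 0.23 (SE, adjusted p = 0.00011 and 0.00056, limma). These values depend on the pseudocount: with 0.01 in its place they were 3.38 and 2.95, and with 1 they were 0.50 and 0.37, under a fold change of 3. Because the pseudocount of 0.1 exceeds the scrambled level, the ratio was also taken from the reads: it was 12.4 under siCyclin K#1 (exact 95% interval 7.57 to 21.7, from 208 and 17 reads) and 8.96 under siCyclin K#2 (5.41 to 15.8, from 151 and 17 reads), and these intervals cover counting error only. Even after the rise GNG7 was the least abundant of the 10 genes in both depleted groups by mean FPKM.

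GNG3, known mainly from neurons, fell with both siRNAs. It was 1.48, 1.82 and 1.91 FPKM in scrambled cells, 0.914, 0.874 and 0.698 under siCyclin K#1, and 0.903, 0.891 and 0.533 under siCyclin K#2. All depleted libraries were below all scrambled libraries, and the depleted groups overlapped. The log2 fold changes were -0.98 ± 0.20 and -1.09 ± 0.20 (SE, adjusted p = 0.0038 and 0.0029, limma). The reads behind them were few, about 44 to 55 per scrambled library, 20 to 26 under siCyclin K#1 and 15 to 26 under siCyclin K#2. Moreover, 447 of the 882 exon bases of GNG3 (50.7%) overlap BSCL2 on the opposite strand, and strand was not stated, so if it was not kept, reads of the 2 genes cannot be told apart there. The row that holds BSCL2 jointly with HNRNPUL2 was 28.8 to 30.8 FPKM in scrambled libraries, 34.8 to 36.1 under siCyclin K#1 and 30.9 to 32.2 under siCyclin K#2. That row rose under siCyclin K#1 (log2 0.26, adjusted p = 0.00042, limma), opposite to GNG3, and under siCyclin K#2 its difference was 0.08 (adjusted p = 0.15, limma).

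GNG4 was 3.43 to 4.06 FPKM in scrambled cells, 3.31 to 4.52 under siCyclin K#1 and 2.87 to 3.55 under siCyclin K#2. The groups overlapped, and the log2 differences of 0.06 and -0.20 did not pass (adjusted p = 0.76 and 0.27, limma). GNG2, a widely used gamma subunit in studies of purified dimers, was 1.27, 0.295 and 0.754 FPKM in scrambled libraries, 0.276, 2.05 and 2.00 under siCyclin K#1, and 0.405, 1.35 and 0.251 under siCyclin K#2. Each group held a library of about 0.3 FPKM and another above 1. No difference passed (adjusted p = 0.57 and 0.83, limma), and the 95% confidence intervals, -1.21 to 2.46 and -2.12 to 1.55 on the log2 scale, were the widest of the 10 genes, so changes of a size seen in other members could not be told from none.

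**Figure D2:**
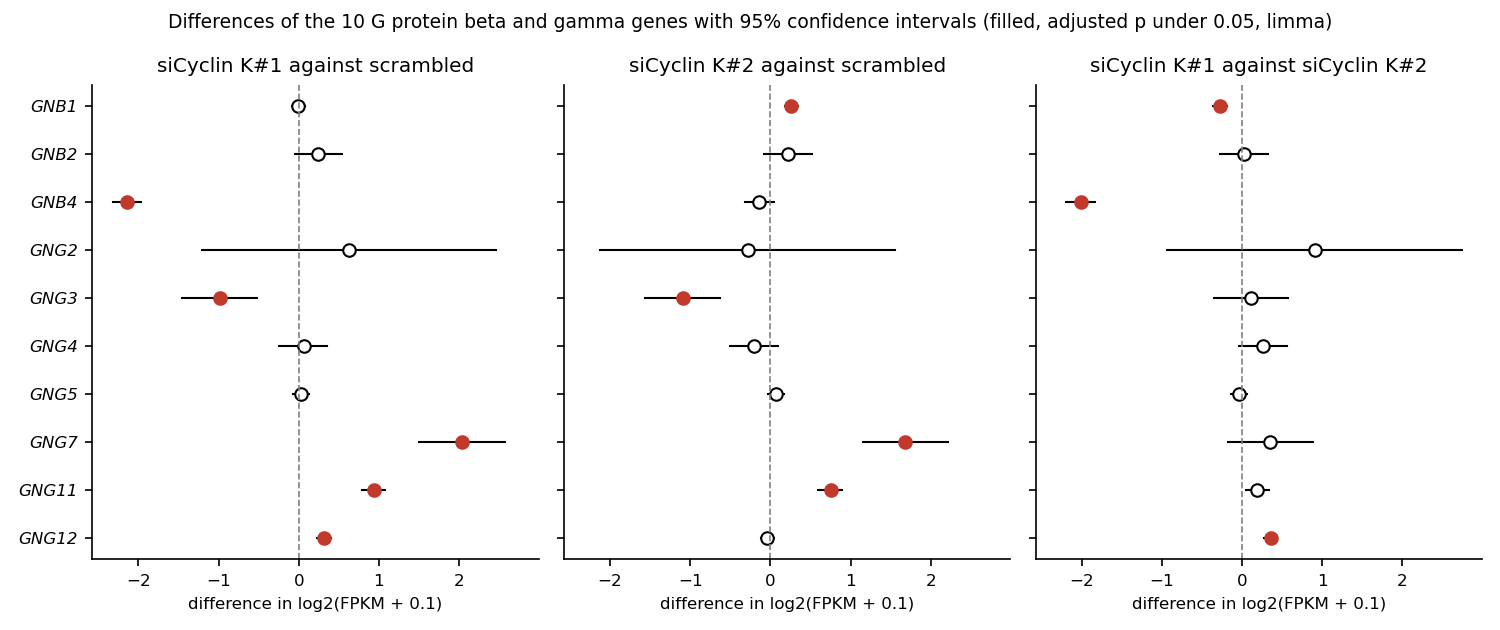
Differences in log2(FPKM + 0.1) of the 10 genes (horizontal axis) with 95% confidence intervals in the 3 comparisons, filled where the adjusted p was under 0.05. GNG3 lies left and GNG7 and GNG11 lie right of 0 with both siRNAs, GNB4 lies at -2.14 under siCyclin K#1 and -0.14 under siCyclin K#2, and the interval of GNG2 is the widest.

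The siRNAs were then compared directly, to see which subunits followed 1 of them. GNB4 was lower under siCyclin K#1 than under siCyclin K#2 by a log2 difference of -2.01 (95% confidence interval -2.19 to -1.83, adjusted p = 7.9e-07, limma). GNB1 was lower by -0.27 (-0.36 to -0.19, adjusted p = 0.00073, limma), and GNG12 was higher by 0.36 (0.27 to 0.44, adjusted p = 0.00015, limma). In each the 3 libraries of one siRNA did not overlap the 3 of the other. Thus 1 gene was higher and 2 were lower, against 17.1% and 12.3% of all tested genes, and GNB4 alone passed the fold change of 3, as did 1.53% of tested genes. Of all genes passing here 58.1% were higher under siCyclin K#1, and 47.1% after median-ratio rescaling. CCNK itself differed by -0.06 (adjusted p = 0.73, limma), with means of 0.809 and 0.844 FPKM under siCyclin K#1 and siCyclin K#2. For the genes that moved with both siRNAs, the direct differences were 0.11 for GNG3 (-0.35 to 0.57, adjusted p = 0.75), 0.35 for GNG7 (-0.18 to 0.89, adjusted p = 0.31) and 0.19 for GNG11 (0.05 to 0.34, adjusted p = 0.052), all from limma. GNG11 was higher in every siCyclin K#1 library than in any siCyclin K#2 library, and the intervals of GNG3 and GNG7 include 0.

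When the 6 depleted libraries were set against the 3 scrambled ones in an exact two-sided permutation test of single genes, GNG3, GNG7 and GNG11 reached p = 0.0119, the smallest that 84 arrangements can give, as did CCNK. For these genes the value follows from the complete separation of depleted and scrambled libraries and adds nothing to it. The test treats the libraries of both siRNAs as a single group. For GNB4 the exact permutation p was 0.0476, with 5 of 6 depleted libraries below all scrambled libraries, although the size came from siCyclin K#1. The exact permutation p of the other members ranged from 0.107 for GNB2 to 0.869 for GNG2. These p-values were not corrected for the number of genes. With 3 libraries against 3, such a test cannot go below 0.1.

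Since FPKM is scaled by length, the subunits were also expressed as parts of the summed level of all beta or gamma genes in the files. The 5 beta genes summed to 75.4 ± 1.54 FPKM in scrambled cells, 72.4 ± 4.14 under siCyclin K#1 and 86.6 ± 3.98 under siCyclin K#2 (SD, n = 3). GNB4 made up 12 to 13.3% of this sum in scrambled libraries, 2.57 to 3.32% under siCyclin K#1 and 8.83 to 10.7% under siCyclin K#2. GNB2 made up 28.3 to 29.4%, 31.1 to 39.8% and 26.8 to 32.0%, and GNB1 was above 50% in every library. With siCyclin K#1 the share of GNB4 was therefore below that of GNB5, which made up 5.89 to 7.59% there.

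The 10 gamma genes summed to 120.2 ± 1.59 FPKM in scrambled cells, 139 ± 1.91 under siCyclin K#1 and 124 ± 2.56 under siCyclin K#2 (SD, n = 3). GNG5 and GNG12 supplied most of it, with 46.0% and 43.0% in scrambled cells, 40.6% and 46.3% under siCyclin K#1, and 46.8% and 40.6% under siCyclin K#2 (means of 3). The share of GNG11 rose from 4.63 to 4.89% in scrambled libraries to 7.15 to 8.60% and 7.59 to 7.91%. GNG3 fell from 1.24 to 1.57% to between 0.439 and 0.727% in depleted libraries, and GNG7 stayed under 0.5% everywhere. The shares of the subunits in each pool depend on each other and were not tested.

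**Figure D3:**
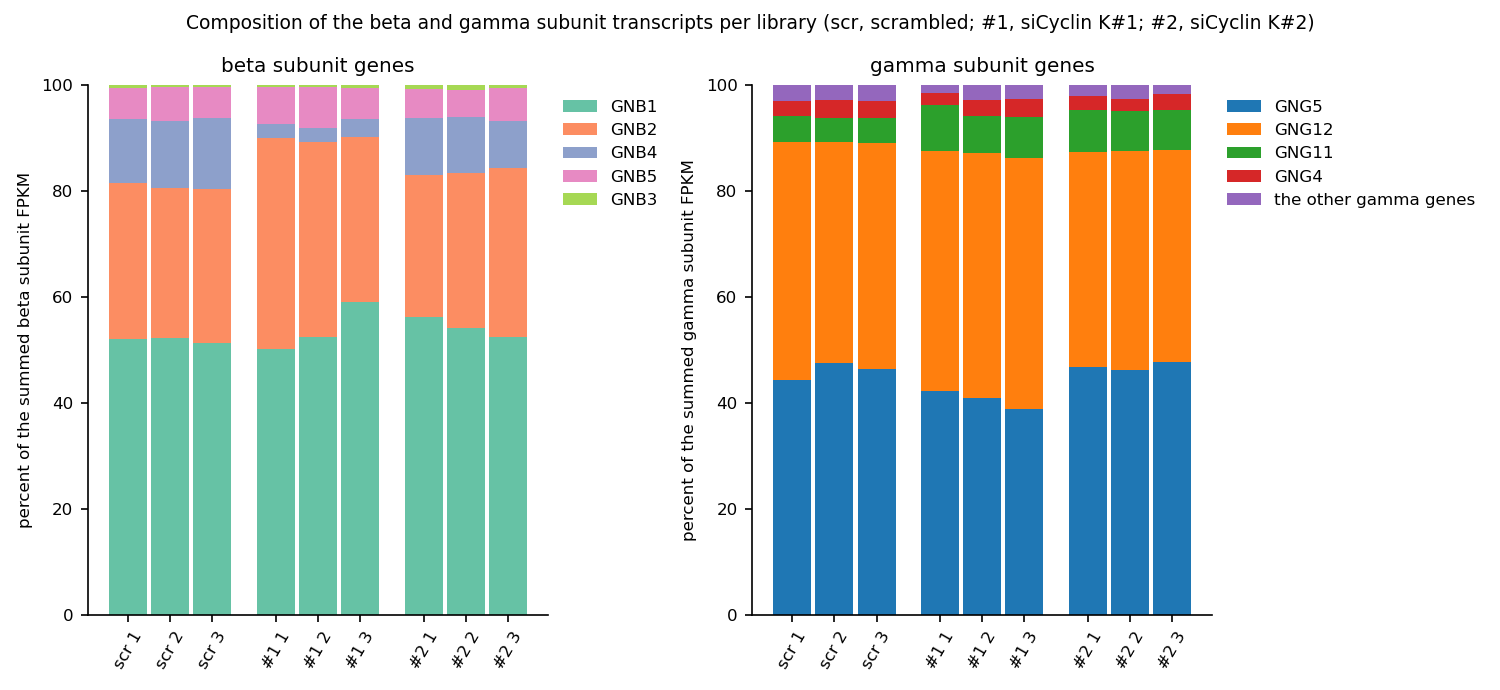
Percent of the summed beta (left) and gamma (right) subunit FPKM supplied by each gene, with 1 bar per library. GNB4 supplied 12 to 13.3% of the beta sum in scrambled libraries and 2.57 to 3.32% under siCyclin K#1, and GNG11 supplied 4.63 to 4.89% of the gamma sum in scrambled libraries and at least 7.15% in the others.

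The spread between libraries of the same group differed widely among the subunits. The SD within groups of log2(FPKM + 0.1) was 0.0411 for GNB1, 0.0421 for GNG12, 0.0560 for GNG5, 0.0757 for GNG11 and 0.0971 for GNB4, all under the median of 0.119 over the 13124 genes whose FPKM averaged 0.5 or more. Above that median were GNG4 at 0.174, GNB2 at 0.186 and GNG3 at 0.266, and GNG7, which averaged under 0.5 FPKM, was at 0.239. GNG2 stood apart at 1.16 and ranked 57 of the 13124 genes, so that 0.434% had a spread at least as large. Its values stand for 60 to 273 reads in scrambled libraries, 57 to 421 under siCyclin K#1 and 51 to 286 under siCyclin K#2. An antisense gene, AL358333.3, shares 479 of the 6379 exon bases of GNG2 (7.51%) and was at most 0.380 FPKM in any library.

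**Figure D4:**
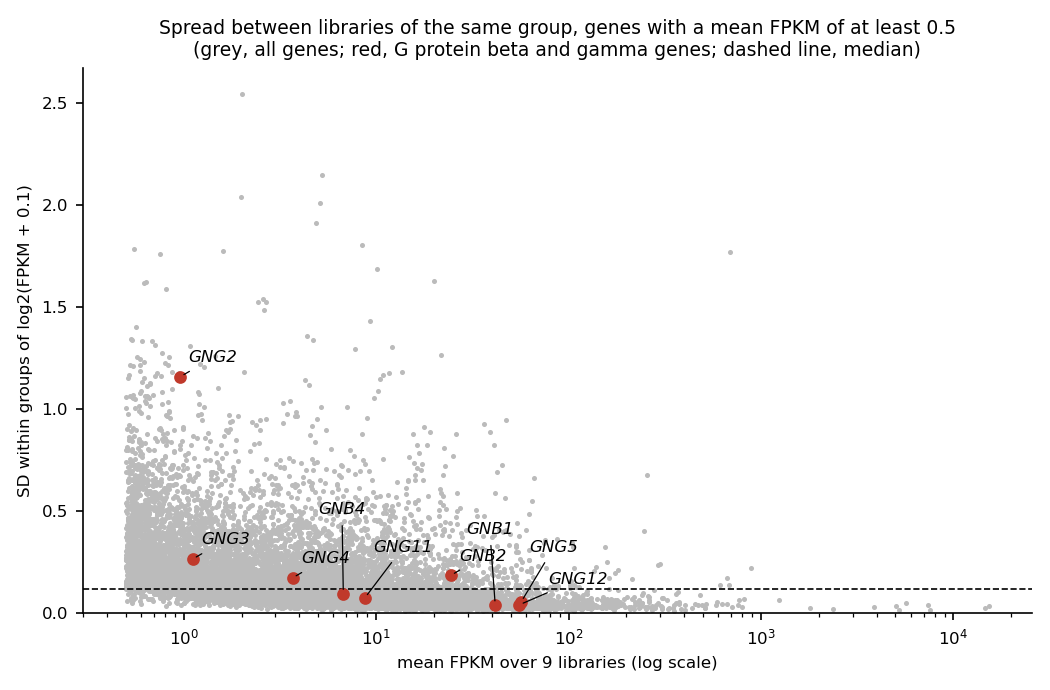
SD within groups of log2(FPKM + 0.1) (vertical axis) against the mean FPKM (log axis) for genes averaging 0.5 or more, which leaves out GNG7. GNG2, at 1.16, lies far above the median of 0.119, and GNB1, GNG5 and GNG12 lie below it.

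The other beta and gamma genes were low. GNB5, the beta subunit that pairs with RGS proteins, was the exception at 4.52 to 4.70 FPKM in scrambled libraries, 4.0 to 5.55 under siCyclin K#1 and 4.26 to 5.63 under siCyclin K#2, and its log2 differences of 0.09 and 0.07 did not pass (adjusted p = 0.64 and 0.72, limma). Its 3′ UTR held 1 match to the siCyclin K#2 seed. GNB3, best known from cone photoreceptors, was 0.368 to 0.483 FPKM in scrambled libraries and 0.566 to 0.876 under siCyclin K#2, where it rose by 0.62 on the log2 scale (adjusted p = 0.028, limma). Under siCyclin K#1 it was 0.396 to 0.468 FPKM (log2 0.06, adjusted p = 0.81, limma). Of the exon bases of GNB3, 16% are shared with CDCA3 on the opposite strand, and the rise of GNB3 no longer passed under several alternatives (adjusted p up to 0.092, limma). CDCA3 was 6.11 to 7.67 FPKM in scrambled libraries and fell under siCyclin K#1 (log2 -1.11, adjusted p = 9.2e-05, limma) and siCyclin K#2 (log2 -0.36, adjusted p = 0.049, limma). GNG13, known from taste and olfactory cells, fell under siCyclin K#1 from between 0.943 and 1.27 to between 0.629 and 0.687 FPKM, a log2 fold change of -0.68 (adjusted p = 0.0027, limma), and was 0.914 to 1.06 under siCyclin K#2 (log2 -0.18, adjusted p = 0.35, limma). The direct difference between the siRNAs was -0.50 (adjusted p = 0.02, limma), and it no longer passed when any of 3 libraries was left out (adjusted p 0.053 to 0.071, limma). It shares 193 of its 984 exon bases with CHTF18 on the opposite strand, which fell under both siRNAs, from 4.58 to 5.46 FPKM in scrambled libraries to 3.38 to 3.55 under siCyclin K#1 (log2 -0.49, adjusted p = 0.0005, limma) and 3.83 to 3.92 under siCyclin K#2 (log2 -0.35, adjusted p = 0.005, limma). The retinal genes GNGT1 and GNGT2 had at most 1 and 2 reads in any library and were not tested. GNG8 and GNG10 had no row of their own among the FPKM values. They were therefore not analysed here and are not part of the gamma sum or of the ranking of gamma subunits.

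The partners of the dimer were counted by role. Of 14 alpha subunit genes in the files, 10 were tested, and 6 rose and none fell under siCyclin K#1 (median log2 fold change 0.62, against 0.10 over all tested genes), while 4 rose and none fell under siCyclin K#2 (median 0.28, against 0.01). Of all tested genes 26.8% rose and 18.1% fell under siCyclin K#1, and 19.8% rose and 15.2% fell under siCyclin K#2. The 4 that rose with both were GNAZ and GNAI2 of the inhibitory class and GNAQ and GNA11, which activate phospholipase C beta. How many of all tested genes rose with both was not counted. GNAZ rose from 0.360 to 0.416 FPKM in scrambled libraries to 1.39 to 1.53 under siCyclin K#1 and 1.31 to 1.72 under siCyclin K#2, by 1.68 and 1.73 on the log2 scale (adjusted p = 7.6e-06 and 1.2e-05, limma). GNAI2 rose from 4.83 to 5.22 FPKM to 10.9 to 11.5 and 9.05 to 9.27, by 1.14 and 0.86 (adjusted p = 2.5e-07 and 2.3e-06, limma). GNA11 and GNAQ rose by 1.07 and 0.89 under siCyclin K#1 and by 1.16 and 0.73 under siCyclin K#2. The depleted libraries of all 4 lay above the scrambled ones.

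Assembly of the dimer needs the CCT chaperonin, whose ring folds the beta subunit, and a phosducin-like cochaperone. The chaperone list also held RIC8A and RIC8B, and a listed gene, PDCL3 included, need not act on the dimer. Of 12 tested chaperone genes, 3 rose and 7 fell under siCyclin K#1 (median -0.27, against 0.10 over all tested genes), where 26.8% of all tested genes rose and 18.1% fell. Under siCyclin K#2, 3 rose and 6 fell (median -0.11, against 0.01), where 19.8% rose and 15.2% fell. PDCL3 rose from 7.20 to 7.64 FPKM in scrambled libraries to 16.7 to 18.1 and 20.2 to 22.5, by 1.21 and 1.51 on the log2 scale (adjusted p = 3.2e-07 and 2.6e-07, limma). PDCL, the other phosducin-like gene tested, instead fell with both siRNAs. Its log2 difference was -0.18 under siCyclin K#1 (adjusted p = 0.0077, limma). Under siCyclin K#2 it was -0.41 (adjusted p = 0.00012, limma). RIC8A rose by 0.14 under siCyclin K#1 and 0.37 under siCyclin K#2 (adjusted p = 0.033 and 0.00028, limma), and RIC8B passed with neither. Of the 8 chaperonin subunits, 6 fell under siCyclin K#1 (TCP1, CCT2, CCT4, CCT6A, CCT7 and CCT8), CCT5 rose and CCT3 did not pass, and under siCyclin K#2 the same genes but CCT6A fell and CCT5 rose. CCT8 fell by 0.73 and 0.37 on the log2 scale and CCT4 by 0.81 and 0.15, while CCT5 rose by 0.31 and 0.66. TCP1 was read from a row that it shares with small nucleolar RNAs. The fall of CCT4 under siCyclin K#2 was small (adjusted p = 0.019, limma) and was -0.02 after quantile normalization.

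Of 6 genes for attaching and trimming the lipid anchor, 1 rose and 1 fell under siCyclin K#1 (median -0.04), beside 26.8% and 18.1% of all tested genes, and none rose and 2 fell under siCyclin K#2 (median -0.11), beside 19.8% and 15.2%. Counts this small are near those shares. ZMPSTE24, a protease of prenylated proteins, was the 1 that fell with both, from 28.8 to 29.7 FPKM in scrambled libraries to 27.0 to 27.7 and 25.3 to 26.5, by 0.09 and 0.17 on the log2 scale (adjusted p = 0.037 and 0.0026, limma). The first of these did not pass under several alternatives (adjusted p up to 0.17, limma). RCE1 and FNTA were read from rows that they share with neighbouring genes.

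Effectors and binding partners of beta-gamma dimers were listed by gene family, so a listed gene need not itself respond to the dimer. Of 13 tested, 11 rose and 1 fell under siCyclin K#1 (median 0.88, against 0.10 over all tested genes). Under siCyclin K#2, 9 rose and none fell (median 0.51, against 0.01). The same 9 genes rose with both, and the share of all tested genes that did so was not counted. PREX1, an exchange factor for Rac that beta-gamma activates, showed the widest change, from 3.33 to 3.57 FPKM in scrambled libraries to 9.97 to 11.6 under siCyclin K#1 and 21.0 to 24.7 under siCyclin K#2. Its log2 fold changes were 1.64 and 2.69 (adjusted p = 5.3e-07 and 1.3e-07, limma), and it was lower under siCyclin K#1 than under siCyclin K#2 by -1.04 (adjusted p = 2.1e-05, limma). ADCY9, an adenylyl cyclase, rose from 1.82 to 2.02 FPKM to 5.53 to 5.89 and 4.32 to 4.64, by 1.54 and 1.19 on the log2 scale. GRK3, a receptor kinase recruited by beta-gamma, rose by 0.95 and 0.80, and PLCB4, a phospholipase C beta, by 1.04 and 0.57. No test of the list as a whole was made. Among all tested genes 26.8% rose and 18.1% fell under siCyclin K#1, and 19.8% rose and 15.2% fell under siCyclin K#2.

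RGS proteins speed the return of alpha subunits to the inactive state. Of 11 tested genes, 3 rose and 5 fell under siCyclin K#1 (median -0.09, against 0.10 over all tested genes), beside 26.8% and 18.1% of all tested genes. Under siCyclin K#2, 2 rose and 4 fell (median -0.05, against 0.01), beside 19.8% and 15.2%. RGS19 rose from 1.70 to 2.26 FPKM in scrambled libraries to 6.66 to 7.54 and 6.11 to 7.41, by 1.75 and 1.70 on the log2 scale (adjusted p = 3.3e-06 and 7.7e-06, limma). RGS2 fell from 18.4 to 20.7 FPKM to 7.58 to 9.29 and 12.5 to 14.9, by 1.23 and 0.46 (adjusted p = 1e-05 and 0.0055, limma). RGS17 fell by 0.98 and 0.83, and RGS9, a partner of GNB5, fell by 1.06 and 0.57.

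**Figure D5:**
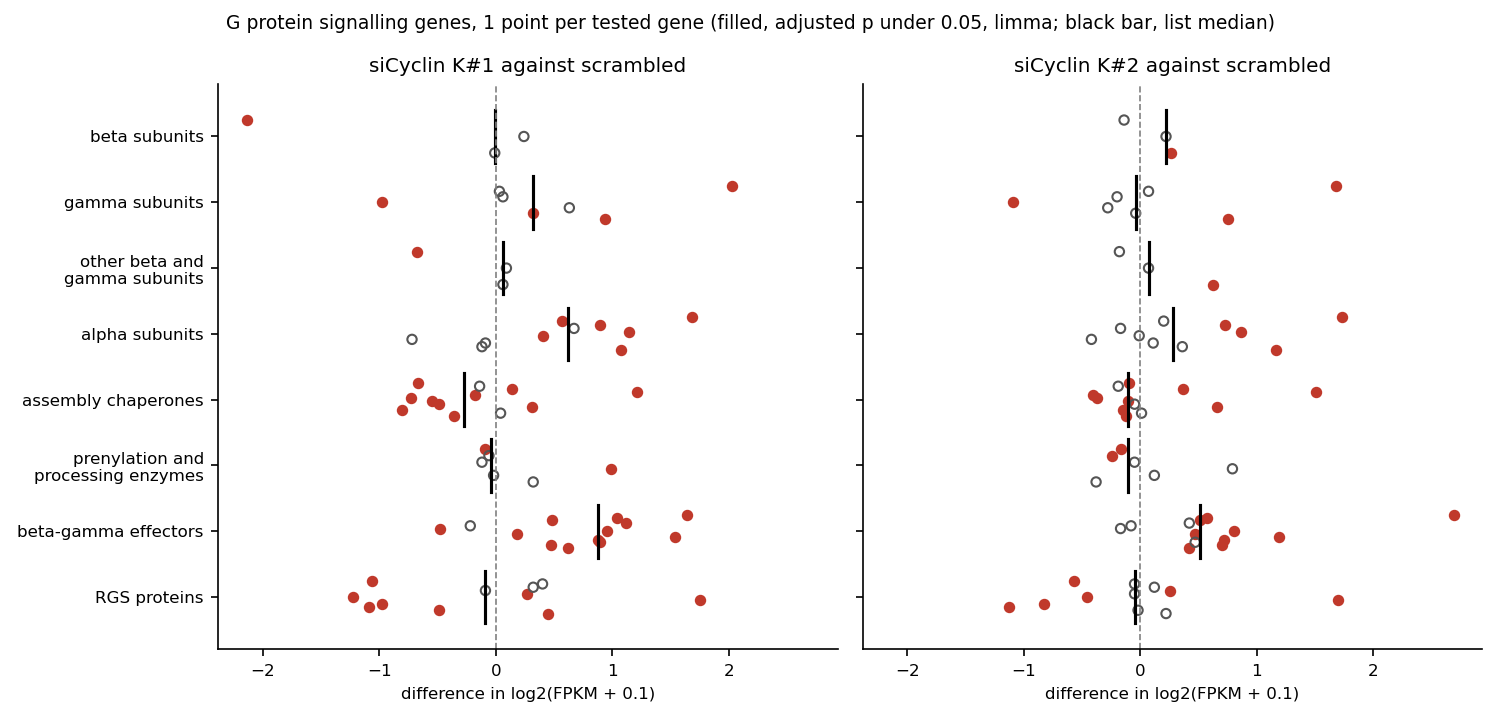
Differences in log2(FPKM + 0.1) of tested G protein signalling genes under siCyclin K#1 (left) and siCyclin K#2 (right), with 1 point per gene, filled where the adjusted p was under 0.05, and a black bar at the median of each list. The effector medians were 0.88 and 0.51 and the chaperone medians -0.27 and -0.11.

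Genes with a pattern like that of GNG3 and GNG7 were sought by Pearson's r of log2(FPKM + 0.1) over the 9 libraries, among genes averaging 0.5 FPKM or more. The most alike for GNG3 were AC115223.1 (r = 0.983), AC109460.2 (r = 0.981) and UQCRQ (r = 0.978), a subunit of respiratory complex III that was 40.1 to 44.3 FPKM in scrambled libraries and 27.5 to 32.7 in depleted ones. For GNG7 they were CAMTA2 (r = 0.994), ZNF248 (r = 0.993) and UBP1 (r = 0.993). CAMTA2 was 4.36 to 4.69 FPKM in scrambled libraries and 5.99 to 6.75 in depleted ones. These are the highest of about 13124 values, over libraries that share the contrast between groups, and are given as a description.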

How the data were processed

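RNA from 9 libraries of A549 cells was measured, with 3 libraries in each group as given by the sample labels. The authors sequenced paired reads of 150 bases and deposited FPKM values for 56252 features per library, made with StringTie 1.3.3b per the submitters' processing notes. The aligner, the annotation, the strandedness and the treatment of reads that match several genes are not given in the sources used here, and beta and gamma genes have close relatives. Of the features, 25125 carry no reference gene and were left out. Where several rows carried 1 reference gene, their FPKM were added up.

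Reads were recovered from the FPKM steps with exon lengths of GENCODE 29, which held 29695 of 29736 gene identifiers. Between 83.3 and 85% of nonzero values per library came out whole within 0.05. Reads of StringTie loci, such as GNB4, GNG3, GNB5 and GNG13, are approximate. A chi-square per degree of freedom of 13.4 to 17.3 showed that no replicate was a copy of another. The depth was 31333835 to 33768067 reads per library, and the floor was set at 3 reads.

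Genes with at least 0.1 FPKM in at least 3 libraries (21048) entered 1 limma fit of the 3 groups on log2(FPKM + 0.1), with eBayes, trend and Benjamini-Hochberg adjustment of two-sided p-values (limma 3.58.1, R 4.3.3). The fit was tested on simulated data. The fold change over 3 with p under 0.01 of the study's methods was counted beside it, with differences and unadjusted p from the same fit. Single genes had an exact permutation test. The beta and gamma genes and all lists were chosen with earlier results of these data known. Besides all beta and gamma genes and CCNK, up to 4 genes of each list were named, those with the largest mean change among genes that passed in the same direction with each siRNA and averaged 1 FPKM or more, as were the 3 genes most like GNG3 and GNG7. Overlapping genes were named for their position, and PDCL was named beside its relative PDCL3. RIC8A and RIC8B were named to describe the chaperone list. Alternatives were quantile normalization, median-ratio rescaling, other pseudocounts and filters, no trend in eBayes, the replicate number as a block, fits of the 2 groups compared, the highest row per gene, limma-voom on the reads recovered here, and omission of each library in turn.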

Additional observations from a re-analysis of the deposited data

Results flagged for a closer look

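In 3 of the 10 subunits the effects of the siRNAs differed from each other by the direct test. Among all tested genes 17.1% were higher and 12.3% were lower under siCyclin K#1 than under siCyclin K#2. The count is near these shares and is not a result about the family as a group. GNB4 was lower under siCyclin K#1 than under siCyclin K#2 by a log2 difference of -2.01 (adjusted p = 7.9e-07, limma with Benjamini-Hochberg adjustment), and GNB1 was lower by -0.27 (adjusted p = 0.00073). GNG12 was higher under siCyclin K#1 by 0.36 (adjusted p = 0.00015). Of the other beta and gamma genes, GNG13 was lower under siCyclin K#1 by -0.50 (adjusted p = 0.02, limma). This no longer passed when siCyclin K#1 replicate 1, siCyclin K#2 replicate 2 or siCyclin K#2 replicate 3 was left out (adjusted p up to 0.071, limma). The groups had 3 libraries each, too few for the search for single outlying libraries.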

How the results depend on the processing

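Over all alternatives, 597 of 618 values of the 10 genes kept their direction and their side of the threshold, 7 passed where they had not, and 14 turned sign. No passing difference of GNB1, GNB4, GNG3, GNG7, GNG11 or GNG12 was lost or turned sign in any alternative that gave a value, but sizes moved: GNG7 ran from 0.50 (pseudocount 1) to 3.61 (limma-voom) under siCyclin K#1 and from 0.37 to 3.18 under siCyclin K#2, below a fold change of 3 at pseudocounts of 0.5 and 1, GNG3 was -0.58 and -0.63 at a pseudocount of 1, and GNG12 was 0.20 under siCyclin K#1 after median-ratio rescaling. limma-voom gave none for GNB4 and GNG3, whose reads were approximate, so that 3 genes passed under siCyclin K#1, and a mean FPKM of at least 1 left GNG7 and GNG2 untested. With any library left out, 5 to 6 genes passed under siCyclin K#1, 4 under siCyclin K#2 and 3 to 4 between the siRNAs. With the replicate number as a block, 5, 4 and 4 passed (all genes: 9062, 6947 and 5680, against 9435, 7353 and 6191). The numbers did not pair the libraries: deviations from the group means correlated by -0.071 to 0.038 over 11243 genes. The differences that turned sign did not pass the test with or without the change, and were small. Under siCyclin K#1 they were GNB1 at 0.05 (quantile normalization), GNG4 at -0.06 (median-ratio), -0.11 (quantile) and -0.04 to 0.18 (a library left out), GNG5 at -0.09, GNB3 at -0.03 and GNB5 at -0.03 (median-ratio), and GNB3 at -0.11 and GNB5 at -0.05 (quantile). Under siCyclin K#2 they were GNB5 at -0.02 (quantile) and -0.03 to 0.17 and GNG2 at -0.88 to 0.15 (a library left out). Between the siRNAs they were GNB2 at -0.04 (median-ratio) and -0.09 to 0.17 (a library left out), GNG3 at -0.07 (quantile) and -0.11 to 0.22 (a library left out), GNG5 at 0.04 (quantile), GNB5 at -0.06 (median-ratio), -0.03 (quantile) and -0.08 to 0.16 (a library left out), GNAZ at up to 0.05, RGS19 at -0.01 to 0.13 and CCNK at -0.12 to 0.02 (a library left out), and RGS19 at -0.01 (median-ratio). The cause was not tested. GNG11 passed between the siRNAs under 4 alternatives, GNB1 under siCyclin K#1 at -0.13 after median-ratio rescaling (adjusted p = 0.035, limma), and GNG4 between the siRNAs at 0.38 without siCyclin K#1 replicate 1 (adjusted p = 0.048, limma). Depth limits GNG7 in scrambled cells, GNG3, GNB3 and GNG13.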
